A study of Mus musculus with 4 samples.

Results

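The mitochondrial ribosomal protein genes were taken as the protein-coding genes whose symbol is Mrpl or Mrps followed by a number and at most 1 letter. The rule found 78 genes, 49 named Mrpl for the large subunit and 29 named Mrps for the small subunit, of 54532 genes in the table, 22046 of them protein coding. They lay on 17 chromosomes. The RNA came from whole pancreatic islets of male C57BL/6 mice, 10 to 12 weeks old, in 4 libraries. The transgenic group (transgenic 1 and 2) carried a miR-29a/b-1 transgene, overexpressed in pancreatic beta cells per the series' design, and the wild-type group (wild type 1 and 2) carried none. The labels name neither the promoter of the transgene nor the number of mice behind a library. They also do not say whether the libraries of a genotype are separate mice, so the p-values rest on a spread between libraries that may be technical. A beta-cell transgene was read in whole islets, and in such bulk RNA fewer cells of a type and less RNA per cell cannot be told apart.

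Mitochondria keep their own ribosome, which translates the handful of messenger RNAs encoded by mitochondrial DNA, all of them for subunits of the respiratory chain and ATP synthase. Its ribosomal RNAs are made in the mitochondrion, but every one of its proteins is encoded in the nucleus, made in the cytosol and imported. In beta cells, ATP from mitochondria closes potassium channels and so couples glucose to insulin release. Gene names predate the structures of the mammalian particle: the products of Mrps18a and Mrps30 sit in the large subunit, and Mrps36 is now known as a subunit of the 2-oxoglutarate dehydrogenase complex.

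Levels are in FPKM, that is, fragments divided by the length of the gene in kilobases and by a size for each library. Read numbers were recovered from them. Reads in genes numbered 21670854 to 23654135 in the transgenic libraries and 23730364 to 27080907 in the wild-type ones. The size implied by the deposited FPKM was 25780368 and 21011933 in transgenic 1 and 2, against 23869634 and 25927074 in wild type 1 and 2. That size was not the number of reads in genes, and how it was set is not given. The 78 genes together held 42682 and 37979 reads in transgenic 1 and 2, against 40669 and 46882 in wild type 1 and 2. That was 0.1804% (95% exact binomial interval 0.1787 to 0.1822) and 0.1753% (0.1735 to 0.1770) of the reads in the transgenic libraries, and 0.1714% (0.1697 to 0.1731) and 0.1731% (0.1716 to 0.1747) in the wild-type ones. The libraries of each genotype carry the numbers 1 and 2, and over the ribosomal protein genes transgenic 1 and wild type 1 correlated with r = 0.986 in log2(FPKM + 1), and transgenic 2 and wild type 2 with r = 0.994. The r was 0.966 between the transgenic and 0.964 between the wild-type libraries (77 genes, which are not independent replicates). What the number stands for is not given, so each genotype difference is also given within each number. Beta-cell markers were abundant in all libraries, with 10 of 10 genes tested and sums of 151540 and 271470 FPKM in transgenic 1 and 2, against 223830 and 286860 FPKM in wild type 1 and 2. Acinar-cell markers, from the exocrine tissue around islets, summed to 6126 and 1686 FPKM in transgenic 1 and 2, against 4610 and 974 FPKM in wild type 1 and 2, with none of the 12 at 0 in every library.

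Of the 78 genes, 77 reached 1 FPKM in 2 or more of the libraries and were tested, among 12716 genes in all. The one that did not was Mrpl53, listed at 0 in all 4 libraries, and 695 of its 790 exon bases overlap 2 other annotated genes, Ccdc142os and Gm42688. Since the rule for reads in overlapping genes is not given, that 0 does not show that Mrpl53 is silent. Reads of a tested gene numbered at least 96 and at most 1458 in a library. Levels spread 36.0-fold between the highest and the lowest mean, with a median of 8.43 FPKM and quartiles of 5.08 and 14.1 FPKM. The median of the 10874 protein-coding genes tested was 6.15 FPKM, and 48 of the 77 lay above it. Named by subunit, the median level was 9.90 FPKM for Mrpl and 6.59 FPKM for Mrps genes.

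Mrps21, whose product is a homologue of a small bacterial small-subunit protein, had the highest mean level. It stood at 40.7 and 67.9 FPKM in transgenic 1 and 2, and at 41.6 and 72.0 FPKM in wild type 1 and 2. Mrps12, the homologue of a bacterial protein of the decoding centre, was next, with 54.4 and 42.3 FPKM in transgenic 1 and 2 and 53.4 and 33.9 FPKM in wild type 1 and 2. The order of these top genes turned with the number: Mrps12 led in both libraries numbered 1 and Mrps21 in both numbered 2. Mrpl34, Mrpl36, Mrps28, Mrpl41, Mrpl54 and Mrps33 followed, with means of 30.2, 29.1, 26.2, 25.8, 24.2 and 23.99 FPKM. Mrpl34 and Mrpl36, neighbours in this order, did not differ beyond the spread of their libraries: Mrpl34 had 30.2 and 31.8 FPKM in transgenic islets and 31.3 and 27.5 FPKM in wild-type islets, and Mrpl36 had 26.0 and 31.4 FPKM in transgenic islets and 27.9 and 31.0 FPKM in wild-type islets. The lowest were Mrps30 at a mean of 1.54 FPKM, Mrps25 at 1.69, Mrps35 at 2.002, Mrps10 at 2.03, Mrpl19 at 2.08, Mrpl15 at 2.17, Mrpl47 at 2.35 and Mrps22 at 2.46 FPKM.

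**Figure D1:**
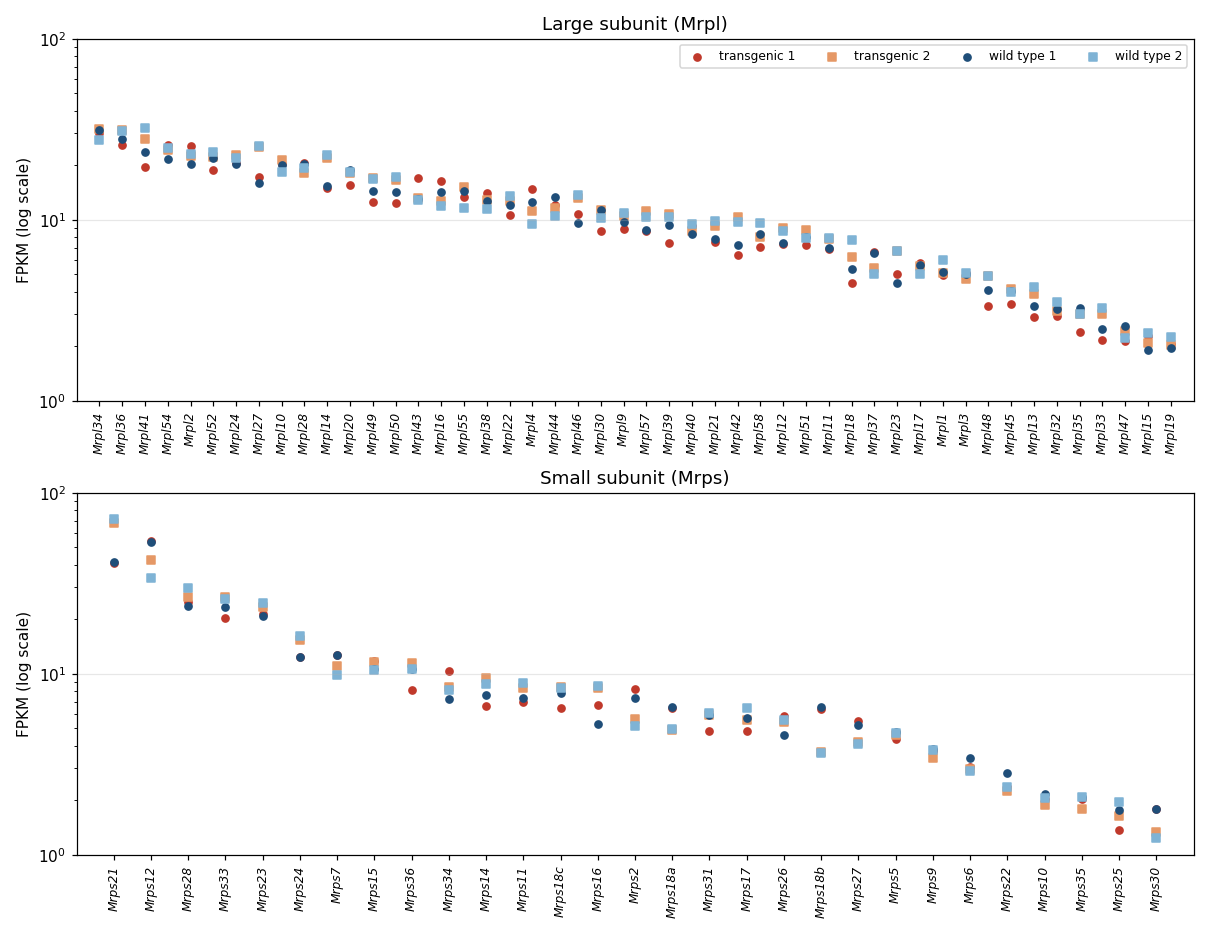
FPKM (log scale) of the 77 mitochondrial ribosomal protein genes with reads, large-subunit names above and small-subunit names below, ordered by mean, with 1 point a library (circles for number 1, squares for number 2, red for transgenic, blue for wild type). Levels run from 55.5 FPKM (Mrps21) to 1.54 FPKM (Mrps30), and for Mrps21, Mrps12 and Mrps18b circles and squares part while genotypes do not.

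Level followed the length of the gene. Spearman's rho between mean FPKM and the deposited gene length was -0.83 over the 77 genes, against -0.24 over all protein-coding genes tested. FPKM divides by that length, which for 73 of the 78 genes equals the union of all annotated exons and so counts rare long isoforms in full. Mrps30, Mrps25, Mrps35 and Mrps10 have deposited lengths of 6666, 6576, 8631 and 8079 bases, against 739 bases for Mrps21 and 1040 for Mrps12. The genes varied little between libraries, with a median coefficient of variation of 11.5%, against 14.4% for all genes tested and 12.7% for the 9416 protein-coding genes in the same range of FPKM. In 11 of the 77 (14.3%) the highest library was over 1.5-fold above the lowest, against 35.3% of all genes tested. That last share covers genes of every level, and genes in the same range of FPKM were not compared in this way.

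Setting transgenic against wild-type islets asks whether extra miR-29a and miR-29b-1 in beta cells comes with a different level of mitochondrial ribosomal protein messages. Summed over the genes, FPKM came to 837.3 and 926.3 in transgenic 1 and 2, and to 850.3 and 920.9 in wild type 1 and 2. The genotypes overlapped, with means of 881.8 ± 63.0 in transgenic and 885.6 ± 49.9 in wild-type islets (SD, n = 2 each; exact permutation test, 2-sided, p = 1.0, where the smallest p that 2 against 2 libraries allow is 1 in 3). The transgenic sum was 0.985 times the wild-type one in number 1 and 1.01 times in number 2. In the share of reads in genes, by contrast, both transgenic libraries (0.1804% and 0.1753%) lay above both wild-type ones (0.1714% and 0.1731%). Whether the genotypes overlap therefore depends on the scale, and the reason was not tested. As a share of all FPKM without Ins2, Ins1 and Iapp, the 3 most abundant transcripts, the genes took 0.3484% and 0.3893% in transgenic 1 and 2, against 0.3544% and 0.3883% in wild type 1 and 2. The ratio of summed Mrps to summed Mrpl FPKM was 0.578 and 0.564 in transgenic 1 and 2, against 0.571 and 0.566 in wild type 1 and 2, so the balance of the subunit names also overlapped between genotypes.

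No single gene of the 77 passed the test for transgenic over wild type (limma on log2(FPKM + 1), Benjamini-Hochberg adjustment over 12716 genes, threshold 0.05, 2-sided), where 0% of all genes were called. At an unadjusted p under 0.05 there were 0 of the 77 and 83 of all genes. Their log2 fold changes ran from -0.24 (Mrpl18) to 0.25 (Mrps34), with a median of -0.038, against 0.012 over all genes tested. Within number 1 the median was -0.029 and within number 2 it was -0.014, against 0.020 and 0.009 for all genes. The fold change was negative for 48 (62.3%, against 46.7% of all genes tested) and positive for 29 of the 77. With voom on the recovered reads, which moved the median of all genes to 0.084, it was negative for 31 and positive for 46. The median size of a change, 0.078, was below the 0.10 of all genes tested. Standard errors ran from 0.12 to 0.39 with a median of 0.16, so differences of the size of the largest ones here were not detectable in 2 against 2 libraries. Acinar markers were higher in transgenic islets, 11 of 11 tested within both numbers, and the median of their log2 fold changes was 0.62, but 0 of them passed the test. Immediate early genes, a set that responds to stress, were also higher in transgenic islets, 7 of 7 within both numbers. Their median was 0.57, and 0 of them passed the test. The part of either set in the differences above was not tested.

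In 5 genes both transgenic libraries lay above both wild-type ones (6.49% of the 77, against 12.2% of all genes tested), and in 13 both lay below (16.9%, against 9.03%). The 5 higher genes were Mrps34, Mrpl43, Mrpl38, Mrps15 and Mrpl10. Mrps34, a small-subunit protein needed in mice for stable small-subunit ribosomal RNA, had the smallest p of all 77. It stood at 10.3 and 8.42 FPKM in transgenic 1 and 2, against 7.27 and 8.11 FPKM in wild type 1 and 2. The genotypes part, but transgenic 1 carries most of the gap. The log2 fold change was 0.25 ± 0.16 (SE, 2 libraries per group; limma adjusted p = 1.00), with 0.45 within number 1 and 0.05 within number 2. Of its 2064 exon bases, 1605 overlap Mapk8ip3 on the other strand or Nme3 on the same strand, so its reads may be shared. Mrpl43, a large-subunit protein specific to mitochondria, had 16.9 and 13.1 FPKM in transgenic and 13.0 and 12.8 FPKM in wild-type islets, where again transgenic 1 alone stands out. Mrpl38 and Mrps15 separated the genotypes more evenly. Mrpl38 had 14.0 and 12.9 FPKM in transgenic islets, against 12.6 and 11.5 FPKM in wild-type islets, and Mrps15 had 11.8 and 11.7 FPKM against 10.6 and 10.4 FPKM (log2 fold changes 0.15 ± 0.14 and 0.14 ± 0.13). Mrpl4, a homologue of a bacterial protein at the exit tunnel, had a larger value, 0.22 ± 0.22, alike in number 1 (0.23) and number 2 (0.22), but its libraries overlapped between genotypes.

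The 13 lower genes were Mrpl58, Mrps17, Mrps25, Mrpl35, Mrps31, Mrpl20, Mrps22, Mrpl1, Mrpl32, Mrps35, Mrps10, Mrps5 and Mrps9. Mrpl58, a peptidyl-tRNA hydrolase built into the large subunit that can free stalled ribosomes, differed by the same amount in both numbers. It stood at 7.05 and 8.04 FPKM in transgenic 1 and 2, against 8.40 and 9.56 FPKM in wild type 1 and 2. Both transgenic libraries lay below both wild-type ones, and within each number the difference was -0.22 on the log2 scale (pooled -0.22 ± 0.15, SE, 2 libraries per group; limma adjusted p = 1.00). Mrps17, a homologue of a bacterial small-subunit protein that binds ribosomal RNA, had 4.83 and 5.56 FPKM in transgenic islets and 5.71 and 6.45 FPKM in wild-type islets, a log2 fold change of -0.19 ± 0.14. Mrps25 had 1.37 and 1.64 FPKM in transgenic and 1.78 and 1.95 FPKM in wild-type islets (-0.19 ± 0.16), and 4590 of its 6576 exon bases overlap Nr2c2 on the other strand. Mrpl35 had 2.39 and 3.001 FPKM in transgenic and 3.27 and 3.005 FPKM in wild-type islets, a gap that lay in number 1 (-0.33) and not in number 2 (-0.002). Mrps22, whose loss causes respiratory-chain disease in humans, had 2.36 and 2.25 FPKM in transgenic islets, against 2.83 and 2.38 FPKM in wild-type islets.

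The 2 largest negative values belonged to genes whose genotypes overlapped. Mrpl18 had 4.50 and 6.23 FPKM in transgenic and 5.33 and 7.75 FPKM in wild-type islets, and Mrpl41 had 19.6 and 27.9 FPKM in transgenic and 23.7 and 32.1 FPKM in wild-type islets. In both genes the difference between numbers exceeded that between genotypes, and the genotype difference was negative within each number (Mrpl18 -0.21 and -0.28, Mrpl41 -0.26 and -0.19 in numbers 1 and 2). Over the 77 genes, r between the genotype difference in number 1 and that in number 2, which share no library, was 0.12, and it was 0.13 over all genes tested. Mrpl12, which binds the mitochondrial RNA polymerase, had 7.37 and 9.01 FPKM in transgenic and 7.44 and 8.66 FPKM in wild-type islets, with no gap between genotypes. Mrpl3 (5.06 and 4.68 FPKM in transgenic, 5.02 and 5.10 FPKM in wild-type islets), Mrpl44 (12.0 and 11.6 FPKM in transgenic, 13.4 and 10.5 FPKM in wild-type islets) and Mrps36 (8.13 and 11.4 FPKM in transgenic, 10.7 and 10.6 FPKM in wild-type islets) also overlapped between genotypes.

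**Figure D2:**
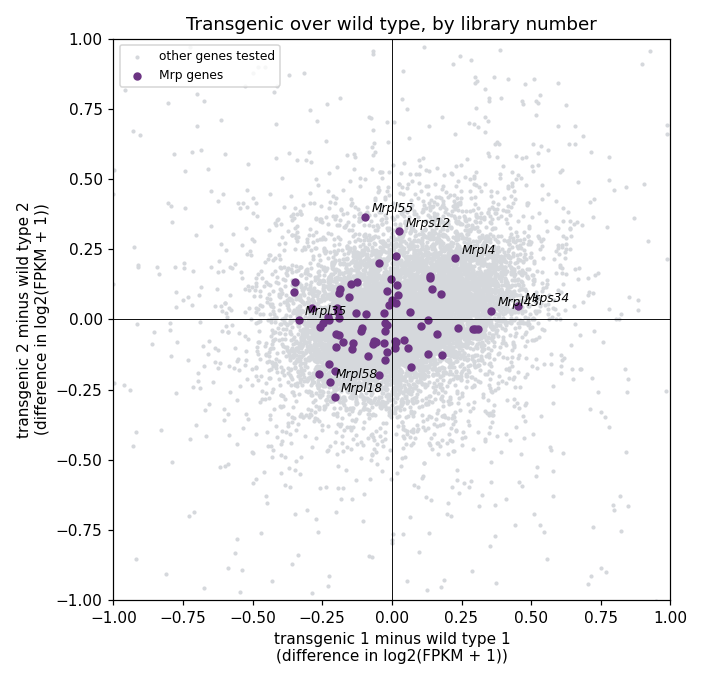
Transgenic minus wild type in log2(FPKM + 1) within number 1 (x axis) and within number 2 (y axis) for the 77 mitochondrial ribosomal protein genes (purple) and the other genes tested (grey; points beyond the axes are not drawn). The ribosomal protein genes lie within the grey cloud, 28 of them below 0 and 14 above 0 in both numbers. Of all 12716 genes tested, 3482 lie below 0 and 4265 above 0 in both. Mrps34 (0.45 and 0.05) and Mrpl35 (-0.33 and -0.002) lie far from 0 on the x axis and near 0 on the y axis.

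miR-29 binds messenger RNAs through its seed, bases 2 to 8, and the 3p arms of miR-29a and miR-29b share that seed. These arms are shown with the seed in capitals, as the matches counted next derive from it (RefSeq, GRCm38.p6, chromosome 6, minus strand, 31062673 to 31062694 and 31063025 to 31063047).
miR-29a-3p: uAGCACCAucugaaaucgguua
miR-29b-3p: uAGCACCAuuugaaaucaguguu

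The 7 bases that pair with the seed, TGGTGCT, were sought in the longest annotated 3′ UTR of each gene, where at least 50 bases long. Of the mitochondrial ribosomal protein genes 10 held a match, 13.0% of the 77 of 78 with such a 3′ UTR, against 15.6% of 10700 protein-coding genes tested. Their 3′ UTRs are short, with a median of 388.5 bases, against 1200 bases for the protein-coding genes tested, and the 10 with a match had a median of 2475 bases. The genes were Mrpl1, Mrpl11, Mrpl32, Mrpl35, Mrpl37, Mrpl47, Mrps5, Mrps14, Mrps17 and Mrps35, and Mrpl11 and Mrpl32 held 2 matches each. Among the 10, 6 lay below wild type in both transgenic libraries and 0 above, against 7 below and 4 above of the 66 tested without a match. Over protein-coding genes tested, 9.91% of 1665 with a match and 8.58% of 9035 without lay below, and 10.6% and 13.4% above. The genotypes overlapped in the other genes with a match, Mrpl11, Mrpl37, Mrpl47 and Mrps14, and their sites are not shown. The sites of the 6 lower genes, which are 6 of the 13 lower genes in all, are shown with the match in capitals. They were picked by their values, so the choice of sites says nothing of an effect of the seed.
Mrps17: gaacatgaTGGTGCTcacctgta
Mrpl1: tgtgtgtgTGGTGCTcggccatt
Mrps5: aatcttagTGGTGCTgaacattc
Mrpl32, first site: ttctttgtTGGTGCTttagaaca
Mrpl32, second site: ttttaaatTGGTGCTaaggaact
Mrpl35: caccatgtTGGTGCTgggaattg
Mrps35: actttcgtTGGTGCTctgtctca

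These genes are also poor in GC, and the genotype difference moved with GC content. The median GC content of the longest transcript was 44.4% in the 10 genes with a match, against 50.04% in the others. Over the 77 genes r between GC content and the genotype log2 fold change was 0.44, and over all genes tested it was 0.47. Within number 1 this r was 0.43 over the 77 and 0.43 over all genes tested. Within number 2 it was weaker, 0.20 over the 77 and 0.27 over all genes tested. Of the 39 genes at or below the median GC content of 49.7%, 12 lay below wild type in both transgenic libraries and 0 above, and of the 38 above that median 1 lay below and 5 above. Among protein-coding genes above that median, 2.49% of 724 with a seed match and 2.18% of 4634 without lay below, and 20.6% and 23.0% above. At or below it, 2.87% of 941 with a match and 3.29% of 4401 without lay above. The median log2 fold change was -0.084 in the GC-poor and 0.012 in the GC-rich ribosomal protein genes. Over protein-coding genes with and without a seed match the shares in the GC-poor range were close: at or below 49.7% GC, 15.6% of 941 genes with a match and 15.3% of 4401 without lay below wild type in both transgenic libraries. Among the ribosomal protein genes in that GC range the shares were 6 of 9 with a match and 6 of 30 without, and this difference was not tested. With each library's curve on GC content removed, 7 of the 77 separated below (7.86% of all genes tested) and 0 above (7.49%). These 7 included Mrps17 and Mrps5 of the 10 with a match, and the median log2 fold change was then -0.026 with a match and -0.055 without. Mrps17 is one of the genes whose genotypes part with and without that curve, as are Mrpl58, Mrpl20, Mrps25 and Mrps5.

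**Figure D3:**
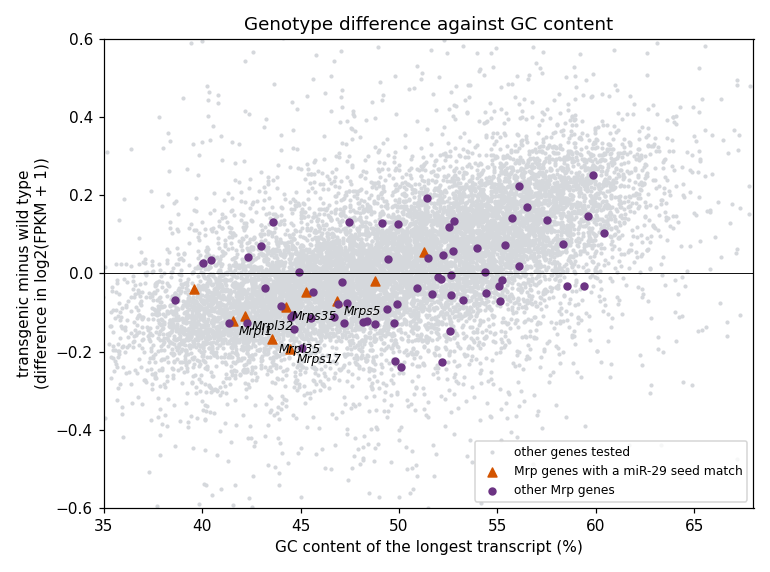
Transgenic minus wild type in log2(FPKM + 1) against the GC content (%) of the longest transcript for the 10 mitochondrial ribosomal protein genes with a miR-29 seed match (orange triangles), the others (purple) and the other genes tested (grey; points beyond the axes are not drawn). Both ribosomal protein genes and grey points climb with GC content (r of 0.44 and 0.47), and 9 of the 10 triangles lie at or below the median GC content of the 77 genes, 49.7%.

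The libraries numbered 2 differed from those numbered 1 more than the genotypes did. Of the 77 genes, 6 were higher in number 2 (7.79%, against 10.1% of all genes tested) and 4 were lower (5.19%, against 10.6%) in the same limma test with the number as its term. Both libraries numbered 2 lay above both numbered 1 for 31 genes (40.3%, against 34.4%) and below for 14 (18.2%, against 32.4%). The median log2 fold change of number 2 over number 1 was 0.105, against 0.006 over all genes, with 0.155 in transgenic and 0.116 in wild-type islets. On recovered reads with voom, which scales the libraries differently, it was -0.003, where the median over all genes was -0.113, and 4 of the 77 were called higher and 6 lower. Without wild type 2 the count called was 4, and without transgenic 1 it was 6. The split ran with other changes: 9 of 11 acinar markers tested passed the test as lower in number 2 (median log2 fold change -2.06), and all 11 lay lower in both genotypes. Of the 7 immediate early genes, which respond within minutes to stress, 7 passed as lower (-2.01). Of beta-cell markers 3 of 10 passed as higher (median 0.21) and 8 lay higher in both genotypes. Of alpha-cell markers 3 of 5 passed as higher (0.68) and 4 lay higher in both genotypes, and of endothelial markers 2 of 5 passed as lower (-0.43) and 4 lay lower in both. Their part in the differences of the ribosomal protein genes was not tested.

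The 6 genes higher in number 2 were Mrps21, Mrpl27, Mrpl14, Mrpl42, Mrpl23 and Mrpl46, 5 of them large-subunit names. Mrps21 (GRCm38 chromosome 3, 95862634 to 95871519, minus strand) had a log2 fold change of 0.75 ± 0.09 (SE, n = 2 per number; limma adjusted p = 0.00802), with 0.72 within transgenic and 0.78 within wild-type islets. Mrpl27, a homologue of a bacterial protein close to the peptidyl transferase centre, had 25.3 and 25.7 FPKM in transgenic 2 and wild type 2, against 17.2 and 16.0 FPKM in transgenic 1 and wild type 1 (0.59 ± 0.09, adjusted p = 0.013 in limma). Mrpl14, a large-subunit protein at the interface with the small subunit, had 22.1 and 22.7 FPKM in the libraries numbered 2, against 15.1 and 15.4 FPKM in those numbered 1 (0.53 ± 0.09). For each of these the libraries of a number lie close together whatever the genotype. Mrpl42, Mrpl23 and Mrpl46 had log2 fold changes of 0.49 ± 0.10, 0.42 ± 0.09 and 0.38 ± 0.10. Mrpl41 (0.46 ± 0.13) did not pass the test, with an adjusted p of 0.058 in limma.

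The 4 lower genes, Mrps18b, Mrps12, Mrps2 and Mrps18a, all have small-subunit names. Mrps18b (chromosome 17, 35910379 to 35916389, minus strand) had 3.71 and 3.64 FPKM in transgenic 2 and wild type 2, against 6.41 and 6.56 FPKM in transgenic 1 and wild type 1. The numbers did not overlap and the genotypes coincided. The log2 fold change was -0.68 ± 0.08 (SE, n = 2 per number; limma adjusted p = 0.008), and 638 of its 2089 exon bases overlap the antisense transcript Gm16279. Its paralogue Mrps18a had 4.89 and 4.97 FPKM in number 2, against 6.49 and 6.57 FPKM in number 1 (-0.35 ± 0.08, adjusted p = 0.039 in limma). The other paralogue, Mrps18c, whose product is also a homologue of the same bacterial protein, had 8.40 and 8.35 FPKM in number 2, against 6.49 and 7.79 FPKM in number 1 (0.21 ± 0.11, adjusted p = 0.21 in limma). Mrps2 had 5.59 and 5.11 FPKM in number 2, against 8.27 and 7.39 FPKM in number 1, and Mrps12 had a log2 fold change of -0.50 ± 0.13 (adjusted p = 0.045 in limma). Mrpl4, Mrpl16 and Mrps30 had negative values that did not pass, -0.37, -0.30 and -0.29.

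**Figure D4:**
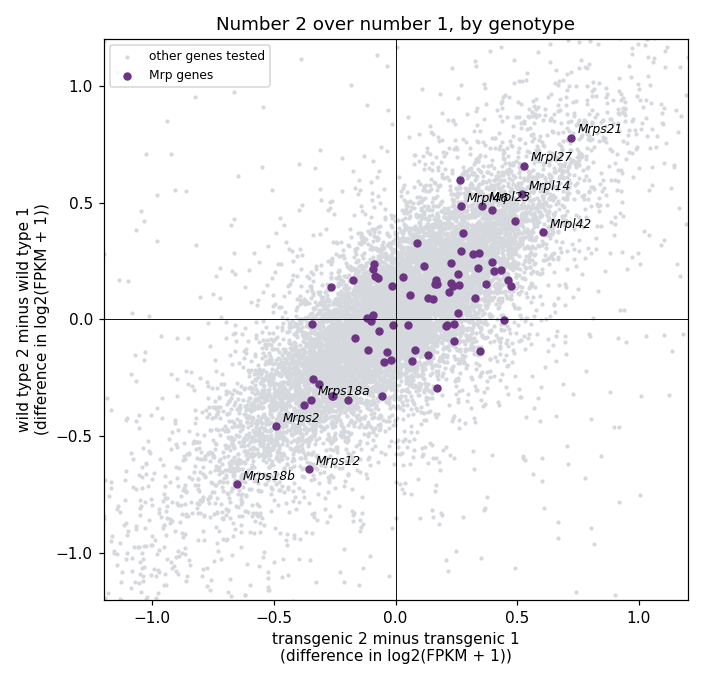
Number 2 minus number 1 in log2(FPKM + 1) within transgenic islets (x axis) and within wild-type islets (y axis) for the 77 mitochondrial ribosomal protein genes (purple; the 10 that passed the test are named) and the other genes tested (grey; points beyond the axes are not drawn). The genotypes, which share no library here, give like values (r of 0.75 over the ribosomal protein genes and 0.78 over all genes tested), from Mrps18b (-0.65 and -0.70) to Mrps21 (0.72 and 0.78).

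Promoters of mitochondrial ribosomal protein genes are known for sites of the transcription factors NRF1, GABP of the ETS family, and YY1. RefSeq windows from 250 bases before to 50 after the start (GRCm38.p6) were matched by symbol for 68 of the 77 genes and searched on both strands. A gene counted where any of its windows held the motif. The NRF1 core CGCANGCG was in the windows of 20 genes (29.4%, against 20.7% of 8994 genes tested and 9.22% of all 27025 genes with a window). The ETS motif CCGGAAG was in 25 (36.8%, against 20.8% and 9.93%), and the YY1 motif AAGATGGC in 12 (17.6%, against 5.66% and 3.19%). An E-box, CACGTG, was in 5 (7.35%, against 12.0% and 8.09%). The median GC content was 58.2%, against 62.3% for the genes tested, with the highest value taken where a gene had several windows. A match of letters is no measure of binding. Windows are printed for Mrps21 and Mrps18b, which moved most with the library number in each direction, and for Mrps12, which has the second highest level. Those of Mrps11 and Mrpl46, a pair whose windows overlap, are also printed. The motifs are in capitals.
Mrps21 (chr3:95871465-95871764, minus strand): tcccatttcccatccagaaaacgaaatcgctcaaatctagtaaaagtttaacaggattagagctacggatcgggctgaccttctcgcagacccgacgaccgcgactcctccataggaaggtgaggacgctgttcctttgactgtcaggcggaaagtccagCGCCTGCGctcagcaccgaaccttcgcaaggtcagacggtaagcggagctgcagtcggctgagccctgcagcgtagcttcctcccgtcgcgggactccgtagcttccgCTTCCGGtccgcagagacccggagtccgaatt
Mrps18b (chr17:35916391-35916690, minus strand): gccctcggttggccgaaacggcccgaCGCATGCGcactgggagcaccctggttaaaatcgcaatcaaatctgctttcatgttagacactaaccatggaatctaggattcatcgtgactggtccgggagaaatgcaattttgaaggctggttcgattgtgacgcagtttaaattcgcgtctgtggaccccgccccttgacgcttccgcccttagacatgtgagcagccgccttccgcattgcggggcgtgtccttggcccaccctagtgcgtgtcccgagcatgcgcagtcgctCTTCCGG
Mrps12 (chr7:28741772-28742071, minus strand): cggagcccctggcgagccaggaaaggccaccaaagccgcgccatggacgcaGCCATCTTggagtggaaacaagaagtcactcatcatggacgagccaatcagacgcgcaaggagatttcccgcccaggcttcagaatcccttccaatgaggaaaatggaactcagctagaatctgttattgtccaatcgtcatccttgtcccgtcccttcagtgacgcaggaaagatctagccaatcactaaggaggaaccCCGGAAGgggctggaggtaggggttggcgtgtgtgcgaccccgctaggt
Mrps11 (chr7:78782881-78783180, plus strand): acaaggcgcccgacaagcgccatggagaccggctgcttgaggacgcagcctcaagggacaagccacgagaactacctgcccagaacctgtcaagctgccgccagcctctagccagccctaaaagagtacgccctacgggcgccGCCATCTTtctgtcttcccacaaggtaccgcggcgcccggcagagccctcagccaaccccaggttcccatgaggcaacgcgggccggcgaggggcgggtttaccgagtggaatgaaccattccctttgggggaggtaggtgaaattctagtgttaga
Mrpl46 (chr7:78783040-78783339, minus strand): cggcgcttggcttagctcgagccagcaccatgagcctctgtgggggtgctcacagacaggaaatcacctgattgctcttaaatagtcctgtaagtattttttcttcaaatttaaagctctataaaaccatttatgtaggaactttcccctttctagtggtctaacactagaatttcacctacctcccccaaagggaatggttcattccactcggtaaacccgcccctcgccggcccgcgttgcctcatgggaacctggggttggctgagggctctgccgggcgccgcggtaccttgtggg

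The window of Mrps21, higher in number 2, and that of Mrps18b, lower in number 2, hold the same pair of motifs, an NRF1 core and an ETS motif. The NRF1 core begins at base 161 of the Mrps21 window and at base 27 of the Mrps18b window, where it reads as a match on both strands, and the ETS motif begins at bases 269 and 294. The Mrps12 window holds a YY1 motif from base 52 and an ETS motif from base 252. Mrps11 and Mrpl46 lie on opposite strands and extend in opposite directions, and their windows share 141 bases. In the deposited coordinates their 5′ ends overlap. A YY1 motif begins at base 144 of the Mrps11 window, and none of the 4 motifs is in that of Mrpl46. Mrpl46 had 10.8 and 13.3 FPKM in transgenic 1 and 2, against 9.56 and 13.8 FPKM in wild type 1 and 2, and Mrps11 had 6.98 and 8.35 FPKM in transgenic 1 and 2, against 7.35 and 8.86 FPKM in wild type 1 and 2. Both lay higher in number 2 in both genotypes, though their exons share 173 bases on opposite strands, and Mrps11 (log2 fold change 0.23 ± 0.09, adjusted p = 0.113 in limma) did not pass the test.

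Such head-to-head arrangements were common. Of the 77 genes, 33 (42.9%) had a protein-coding neighbour on the other strand that starts within 1000 bases and extends the other way. The share was 16.9% of 10874 protein-coding genes tested. Pairs whose 5′ ends overlap are included, among them Mrpl48 with Rab6a, Mrpl18 with Tcp1 and Mrpl14 with Tmem63b. In 26 pairs both genes were tested. The log2 fold changes of number 2 over number 1 had the same sign in 16 of the 26, against 50.6% of 761 such pairs over all genes, with an r of 0.33 over the 26 and 0.13 over the 761. Mrps12 and Sars2, the mitochondrial seryl-tRNA synthetase, start 172 bases apart and had -0.50 and -0.52 (limma adjusted p = 0.045 and 0.089). The latter did not pass the test. Sars2 had 3.47 and 2.33 FPKM in transgenic 1 and 2, against 2.76 and 1.47 FPKM in wild type 1 and 2, so that it lay lower in number 2 in both genotypes like its neighbour. Mrpl36 and Ndufs6, a subunit of respiratory complex I, moved unequally, with 0.20 and 1.10 (limma adjusted p = 0.16 and 0.0047). Mrpl14 and its neighbour Tmem63b had opposite signs, 0.53 and -0.35. Exons of many pairs overlap, by 30 bases in Mrpl36 with Ndufs6, by 106 in Mrpl14 with Tmem63b and by 173 in Mrpl46 with Mrps11. Larger overlaps include 507 bases in Mrpl43 with Twnk and 708 in Mrpl48 with Rab6a. The strand setting of the counting is not given, and the part of shared reads in these values was not tested.

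**Figure D5:**
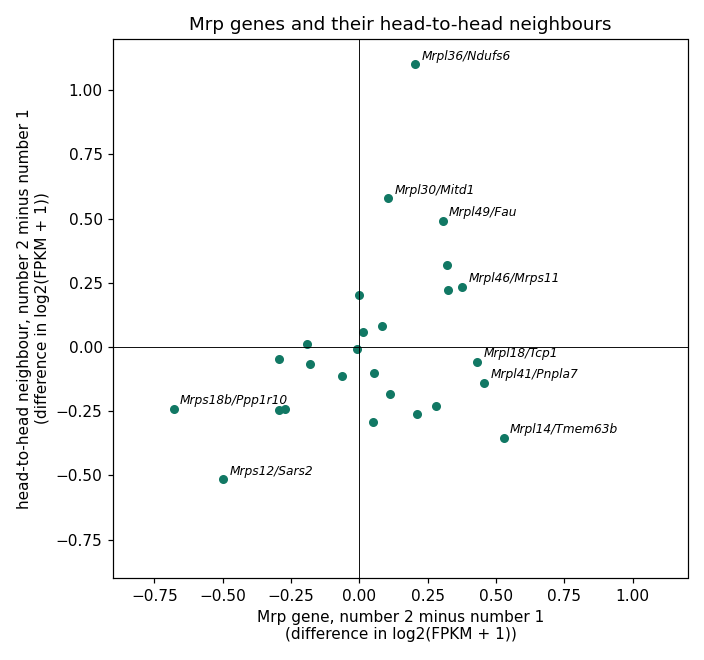
Number 2 minus number 1 in log2(FPKM + 1) of a mitochondrial ribosomal protein gene (x axis) and of its head-to-head neighbour (y axis), 1 point for each of 26 pairs. Pairs lie on both sides of 0, with 16 of the same sign, and Mrpl36/Ndufs6 and Mrpl14/Tmem63b lie away from a shared value.

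The other components of mitochondrial translation were set beside the ribosomal proteins, and none of their genes passed the test for genotype (0% of all genes were called). The 5 subunits not named Mrp had a median log2 fold change of 0.004 for transgenic over wild type. Dap3, a GTP-binding small-subunit protein, had 7.81 and 7.10 FPKM in transgenic and 7.28 and 7.37 FPKM in wild-type islets, which overlapped. Chchd1, a small-subunit protein, was higher in number 2 (0.44 ± 0.10, adjusted p = 0.033 in limma), where the level was 32.5 and 34.4 FPKM, against 23.0 and 25.7 FPKM in number 1. The median over 15 tested translation factors was -0.011, over 24 assembly and RNA-modification factors 0.007, and over 19 mitochondrial tRNA synthetases and amidotransferase subunits 0.014. In number 2, Tufm, the elongation factor that brings aminoacyl-tRNA to the ribosome, was lower, with 12.0 and 12.3 FPKM, against 17.9 and 17.4 FPKM in number 1 (-0.51 ± 0.09, adjusted p = 0.017 in limma). Over all 4 libraries Mrrf, the ribosome recycling factor, had 3.52 and 3.58 FPKM in transgenic and 4.48 and 3.98 FPKM in wild-type islets.

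The RNA partners of these proteins lay lower in transgenic islets without passing the test. mt-Rnr1, the small-subunit ribosomal RNA, had 106 and 136 FPKM in transgenic 1 and 2, against 134 and 160 FPKM in wild type 1 and 2. mt-Rnr2, the large-subunit one, had 161 and 180 FPKM in transgenic and 187 and 186 FPKM in wild-type islets. Only mt-Rnr2 separates the genotypes. The median GC content of these 2 genes is 35.6%. Both lay far below the message mt-Co1, at 5786 and 6095 FPKM in transgenic and 7902 and 6772 FPKM in wild-type islets. Whether the library preparation kept ribosomal RNA in proportion was not tested, so these values need not measure its amount. The 13 mitochondrially encoded messages had log2 fold changes with a median of -0.25 (number 1 alone -0.25, number 2 alone -0.15), with 7 of the 13 below wild type in both transgenic libraries and 0 above, against 9.03% and 12.2% of all genes tested; their median GC content is 37.1%. Polrmt, the mitochondrial RNA polymerase, had 4.31 and 3.94 FPKM in transgenic islets, against 3.21 and 3.38 FPKM in wild-type islets (0.25 ± 0.12, limma adjusted p = 1.00), and Tfam, which packages and transcribes mitochondrial DNA, had 6.68 and 7.83 FPKM in transgenic and 8.35 and 8.24 FPKM in wild-type islets. The 11 tested genes of mitochondrial DNA transcription and copying had a median of 0.046, and 4 of them lay above wild type in both transgenic libraries and 1 below, against 12.2% and 9.03% of all genes tested. The regulators of nuclear genes for mitochondria had a median of -0.057 over 9 tested. Nrf1 had 2.06 and 1.60 FPKM in transgenic and 2.02 and 1.85 FPKM in wild-type islets, Gabpa 5.33 and 7.26 FPKM in transgenic and 6.98 and 7.11 FPKM in wild-type islets, and Yy1 12.6 and 14.2 FPKM in transgenic and 11.04 and 13.1 FPKM in wild-type islets, each overlapping between genotypes. The 15 nuclear subunits of ATP synthase had a median of -0.013.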

How the data were processed

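RNA of pancreatic islets was measured in 4 libraries, 2 per genotype, with groups set by the labelled genotype. Islets were frozen after isolation, RNA extraction used Trizol and an Illumina TruSeq RNA kit made the libraries, per the labels' protocols. The authors deposited FPKM per gene with the gene's length. The tool HTSeq 0.6.0 and the build GRCm38 are named, per the submitters' processing notes; the aligner and strand setting are not given in the sources used here.

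FPKM times gene length came to whole multiples of 1 step per library, within 0.001, for 100% of values above 0, which gave the reads. Where none was counted, up to 3 reads are allowed (0.116 and 0.143 FPKM in transgenic 1 and 2, 0.126 and 0.116 in wild type 1 and 2, for a gene of 1 kilobase); intervals and floors cover counting error only. Genes that reached 1 FPKM in 2 or more libraries were tested in limma 3.58.1 (R 4.3.3, eBayes with a trend) on log2(FPKM + 1), a scale that understates changes of low genes. P-values were adjusted over all genes tested by Benjamini-Hochberg, 2-sided, with a threshold of 0.05. The test was also run between the library numbers, as a described split. The procedure was tested on simulated data. GC content, 3′ UTRs, exon overlap and neighbours came from GENCODE M21 on GRCm38, and promoters and miRNAs from RefSeq GRCm38.p6.

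The genes, lists and alternatives were chosen with earlier results of these data known. Genes were named by level (8 highest and 8 lowest), by p (8 smallest for genotype), by size of change (6 in each direction among genes whose genotypes do not overlap, 6 in each direction for number), where called, and always for 13 set by role; up to 3 genes of each other list with the smallest p, and 7 set by role, could be added. The seed-match genes, the genes whose genotypes do not overlap beyond that rule, Mrps11, Tufm, Chchd1, Dap3 and the head-to-head neighbours were chosen after their values were seen. Alternatives were a pseudocount of 0.1, other filters, a median shift, rescaling without the 3 most abundant genes, removal of a lowess curve (span 0.3) on GC content from each library, voom on the reads, the library number as a term, and leaving out each library or the genes with exon overlap.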

Additional observations from a re-analysis of the deposited data

How the results depend on the processing

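The number of mitochondrial ribosomal protein genes called for genotype was 0 under every alternative run, with a lowest adjusted p of 0.158 (voom with replicate block). Library numbers correlate in their deviations (0.78 within a number, over 12716 genes), but with 2 pairs and no label they share only a number. With the replicate block in limma 0 of the 77 were called and 4 had an unadjusted p under 0.05 (Mrpl18, Mrpl4, Mrpl41 and Mrpl58), with 7 once the GC curve was also removed; with voom and the replicate block they were 3 and 6. Over all genes, 0 were called with the replicate block, 3 higher and 1 lower with the GC curve also removed, 290 higher and 10 lower with voom, and 61 higher and 17 lower with voom and the curve removed.

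The median genotype log2 fold change of -0.038 was -0.016 with an FPKM of at least 5, -0.050 after the median shift, 0.025 with voom, 0.027 with voom and the replicate block, -0.054 with both and the GC curve removed, and -0.014 within number 2. Leaving out 1 library at a time gave -0.102 to 0.035. The count of genes whose genotypes do not overlap, 18, was 10 with an FPKM of at least 5, 7 with the GC curve removed and 36 to 58 with 1 library left out, where 1 library stands against 2. The log2 ratio of summed FPKM, -0.006, was -0.081 to 0.065 with 1 library left out, reversing to 0.052 without wild type 2 and 0.065 without transgenic 1. The cause was not tested.

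For number 2 over number 1 the 10 genes called became 1 with no filter on low values (29257 genes tested), 16 with the GC curve removed, 19 with genotype as a term, 6 without the genes with exon overlap, and 4 to 11 with 1 library left out. The median of 0.105 was 0.150 with an FPKM of at least 5, 0.067 with the GC curve removed, -0.003 with voom, and 0.068 to 0.171 with 1 library left out. Of 591 values of the 40 single genes under alternatives for genotype, 76 changed sign, none of them called; of 471 for number, 20 lost and 12 gained the call and 0 called values reversed. The main genotype test had no term for the library number, so the difference between numbers counted in its standard errors. Of all genes, 83 had an unadjusted p under 0.05 in that limma test and 1360 with the replicate block. Counting error at 96 to 1458 reads per gene and library was not separated from the spread between libraries. What limits the genotype comparison was not tested.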
